A study of Homo sapiens with 19 samples.

Results

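The clustered protocadherin genes were taken as the 53 genes of the TPM and eCLIP tables whose GENCODE name carries the prefix PCDHA, PCDHB, PCDHGA, PCDHGB or PCDHGC and a number. They are 53 of 19942 rows and fall into the alpha cluster with 15 members, the beta cluster with 16 and the gamma cluster with 22. A further gene with such a name, PCDHA14, is annotated as a pseudogene and had no row in the TPM and eCLIP tables. The rRNA-depleted table held 130 transcripts of the 53 members among 256980. All members lie on the plus strand of human chromosome 5 (hg38), the alpha cluster at chr5:140786136-141012347, the beta cluster at chr5:141051374-141249365 and the gamma cluster at chr5:141330514-141512977.

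All samples came from SH-SY5Y, a human neuroblastoma cell line, and the study asked which RNAs the stress granule proteins G3BP1 and G3BP2 bind, which RNAs enter stress granules (SG) and what changes when either protein is depleted. The RNA-seq groups had 1 library each: cells given a negative control siRNA (siCtrl), a G3BP1 siRNA (siG3BP1) or a G3BP2 siRNA (siG3BP2), the lysate of sodium arsenite (AS)-treated cells (Total), the SG cores pulled from that lysate with a G3BP1 antibody (SG), and rRNA-depleted RNA of untreated and of AS-treated cells. eCLIP, which sequences RNA crosslinked to an immunoprecipitated protein, had 2 libraries for each of G3BP1 and G3BP2, untreated and AS. The methods and the label of the rRNA-depleted AS sample give the AS exposure as 1 h at 500 μM, whereas the labels of the other samples, untreated and siRNA ones included, read 50 mM. G3BP1 stood at 18.7 TPM in siCtrl and 6.0 in siG3BP1, and G3BP2 at 38.1 TPM in siCtrl and 11.4 in siG3BP2. Of 10 markers of noradrenergic neuroblastoma 9 were above 1 TPM in siCtrl, as were 7 of 8 mesenchymal markers, against 0 of 4 epithelial, 0 of 3 endothelial and 1 of 3 blood markers. In such bulk samples, fewer cells with a transcript and less transcript per cell cannot be told apart.

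Protocadherins are cell surface adhesion proteins with extracellular cadherin repeats, and in the nervous system each neuron chooses a small set of promoters from the clusters, so that the surface proteins differ from cell to cell. In the alpha and gamma clusters every member has its own promoter and its own large variable exon, which encodes the extracellular part, and splices it to constant exons that all members of the cluster share and that encode the common end of the cytoplasmic part. Beta members have no constant exons. The last members of the alpha and gamma clusters, called C-type, are used more broadly than the others. The insulator protein CTCF binds a conserved element in most variable promoters and brings them to distant enhancers.

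The constant exons were the reason why members could not be read singly from gene-level values, so their starts are shown first. Each cluster had 3 constant exons present in every member, of 59, 89 and 2721 bases in alpha and of 59, 89 and 2029 bases in gamma. The first 30 bases of the first constant exon follow, from the GENCODE transcripts, with capitals where alpha and gamma hold the same base at the same place.
alpha constant exon 1, chr5:140978949-140978978: CcAcgaCaGCCCAACcCtGACTGGCGTTaC
gamma constant exon 1, chr5:141494807-141494836: CaAgccCcGCCCAACaCgGACTGGCGTTtC
The 2 exons were identical at 39 of 59 places (66.1%), and the second constant exons at 29 of 89 (32.6%), counted without gaps. A read from a constant exon therefore names its cluster but not the member it came from.

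The promoters are shown because they are what members of a cluster do not share in their transcripts. RefSeq promoters (GRCh38.p14, 250 bases before to 50 after the start) were found for 47 of the 53 members. Their sequences were read before the motif of each cluster was chosen, and both strands were searched. GTGGCGCT was present in 13 of 14 beta members, 0 of 13 alpha and 0 of 20 gamma members, and in 1.15% of 35116 promoters of that length. The beta member without it was PCDHB1. TGTCGCT was present in 10 of 13 alpha, 1 of 14 beta and 3 of 20 gamma members and in 1.76% of all promoters, and GCCGCTGT in 11 of 20 gamma members, 0 of 13 alpha and 0 of 14 beta members and in 1.63% of all promoters. None of the motifs contains another, and all hold the letters CGCT. Windows of 30 bases are given for members with high values in their cluster that held the motif, with the motif in capitals.
PCDHA8, chr5:140841132-140841161: aagccacatgaTGTCGCTgtctaccaagaa
PCDHA12, chr5:140875246-140875275: cagtcacatgaTGTCGCTctacactcagaa
PCDHB3, chr5:141100394-141100423: gcgaacgcatgGTGGCGCTgttgactaaga
PCDHB10, chr5:141192300-141192329: gaggccacacgGTGGCGCTgcaggctaaag
PCDHB14, chr5:141223264-141223293: ggagacacatgGTGGCGCTacaggataaga
PCDHGA7, chr5:141382652-141382681: ggactcacagcGCCGCTGTtcaccaaccag
PCDHGC3, chr5:141475883-141475912: ggactctgtgtGCCGCTGTcggccaatgaa
PCDHGC4, chr5:141484955-141484984: tgagcccgggaGCCGCTGTctgccaatcgg
PCDHAC2 and PCDHGB7, which led their clusters by mean TPM, held no exact match to their own cluster's motif, and neither did PCDHAC1.

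The deposited TPM values put the clusters in a clear order of level. In siCtrl the gamma members ranged from 51.9 to 108.9 TPM with a median of 91.7, the alpha members from 0.637 to 13.9 with a median of 9.12, and the beta members from 0.0351 to 12.5 with a median of 2.39. All 22 gamma, 14 of 15 alpha and 10 of 16 beta members were above 1 TPM there, against 60.15% of all genes, a share near that of beta. The same order of medians held in siG3BP1, siG3BP2, Total and SG. Within gamma the highest were PCDHGB7 with 104.4, 104.1, 93.1, 64.9 and 201.3 TPM in siCtrl, siG3BP1, siG3BP2, Total and SG, PCDHGC3 with 108.9, 99.96, 86.3, 61.3 and 194.8, and PCDHGC4 with 99.6, 101.1, 88.8, 61.6 and 186.4. The lowest were PCDHGA6 with 56.9, 59.8, 53.1, 37.6 and 108.5 TPM and PCDHGA8 with 51.9, 54.6, 48.4, 34.5 and 97.6. The order followed the annotated length: across members, which are not independent, Spearman's rho between TPM and 1 over the summed exon length lay between 0.75 and 0.90 in gamma and between 0.73 and 0.87 in alpha without PCDHA2.

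Multiplying each TPM by the member's summed exon length showed how much of these levels the members had in common. TPM times length is proportional to the coverage assigned to a gene, and in gamma it was nearly a constant. In siCtrl 18 of 22 gamma members lay within 5% of the lowest product, 447.6, and the same count was 18 in siG3BP1 (lowest 471.6), 18 in siG3BP2 (417.5), 19 in Total (297.9) and 18 in SG (827.2). In alpha the lowest product was 55.3 in siCtrl, 47.3 in siG3BP1, 36.5 in siG3BP2, 18.3 in Total and 157.6 in SG, and between 7 and 8 of 14 members lay within 5% of it. The same coverage thus stood under each of these members, once per member. The shared quantity can be no larger than the lowest product, and spread over the constant exons alone it came to 205.6 TPM for gamma and 19.3 TPM for alpha in siCtrl. The 22 gamma values were therefore close to 1 measurement repeated, not 22, and counts of alpha and gamma members below have to be read in that way.

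PCDHA2 was the exception and was left out of the alpha floor after its value was seen. It stood at 0.637, 0.464, 0.342, 0.321 and 13.5 TPM in siCtrl, siG3BP1, siG3BP2, Total and SG. Its product with length was 3.86 in siCtrl, far under the 55.3 of its cluster, although its full-length transcript holds the same 3 constant exons. In the rRNA-depleted table, which counted each transcript apart, its full-length transcript had 161 reads untreated and 176 in AS, within the range of the other alpha members. Why the gene-level value was low was not tested.

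**Figure D1:**
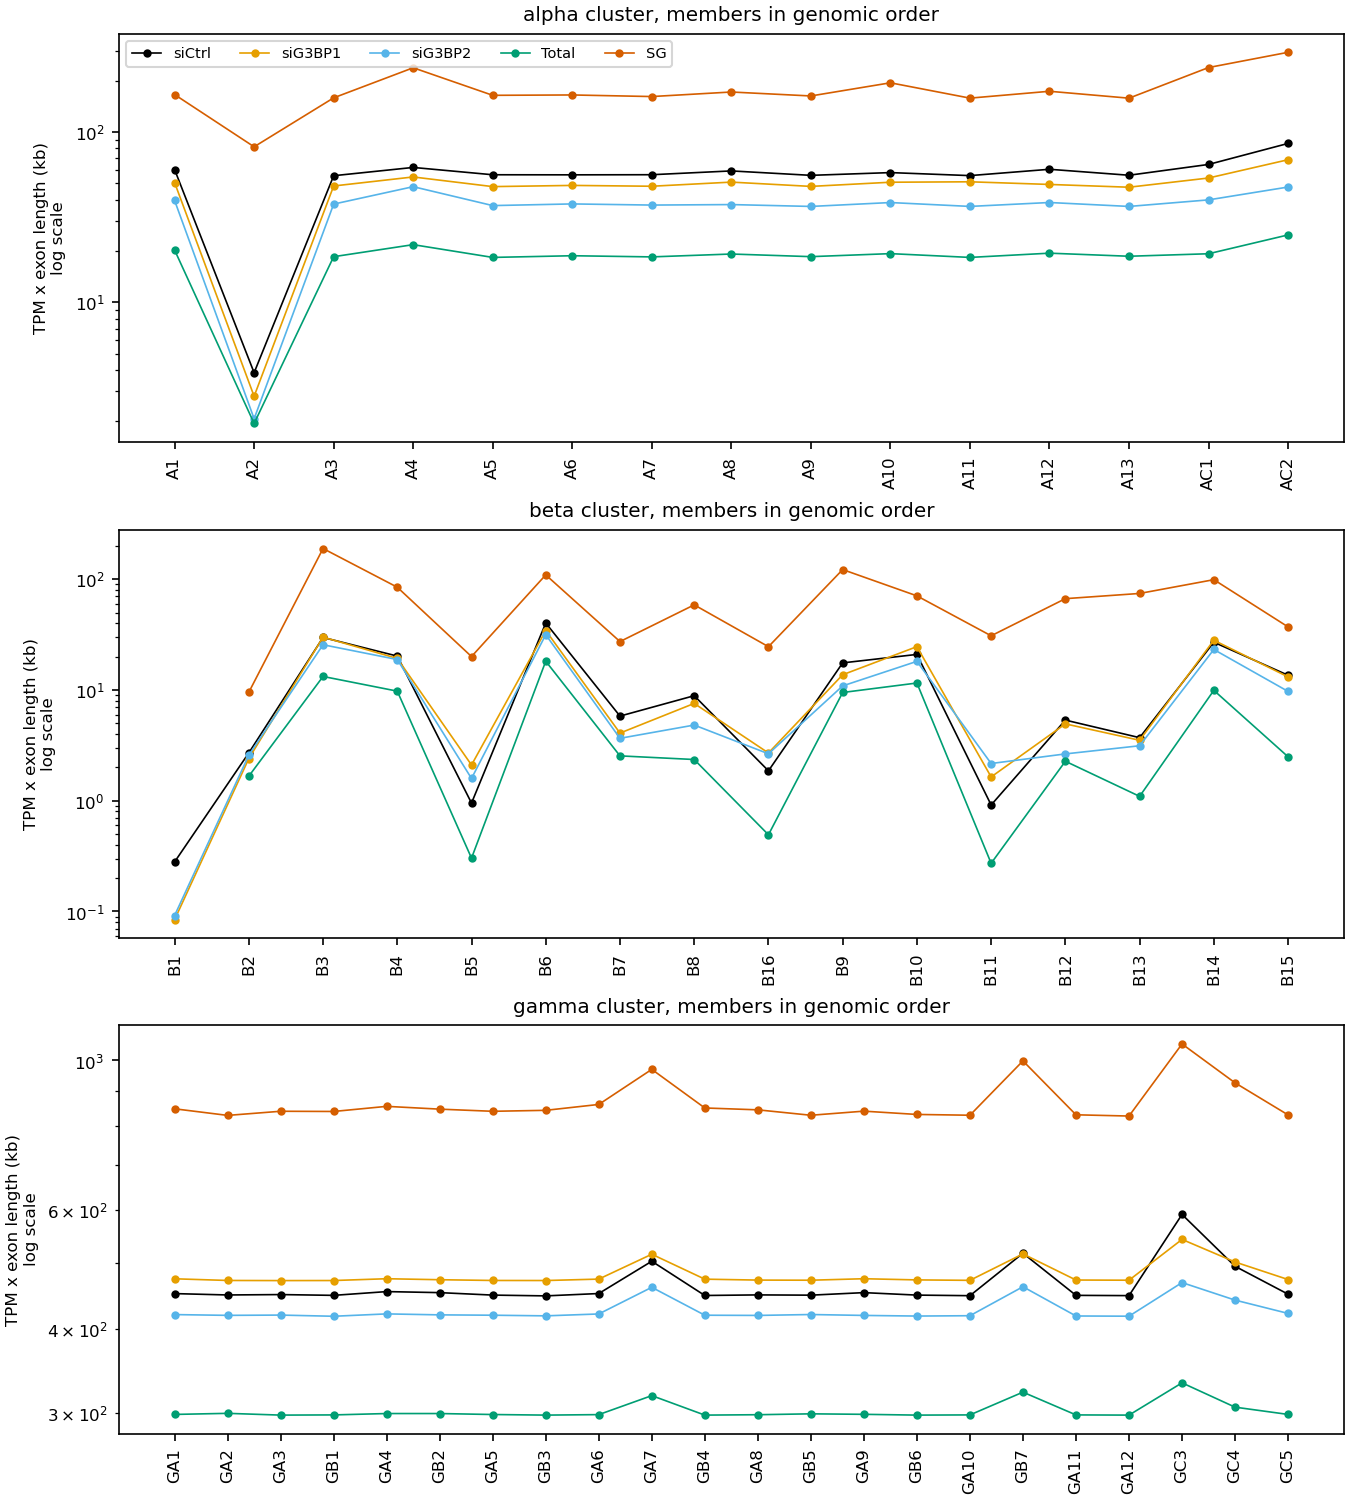
TPM multiplied by summed exon length (y axis, log scale) for each member in genomic order (x axis), with 1 line for each of the 5 libraries and a panel per cluster. The alpha and gamma lines are flat apart from PCDHA2 and from members that rise above the floor, such as PCDHGC3 at 591.1 against a lowest product of 447.6 in siCtrl, while the beta lines move freely.

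What stood above the floor was taken as the part that belongs to the member. In gamma 4 members were clear of the rest in every library: PCDHGC3, PCDHGC4, PCDHGB7 and PCDHGA7. The least of these 4 was 10.6% above the floor in siCtrl, 6.57% in siG3BP1, 5.67% in siG3BP2, 2.74% in Total and 12% in SG, whereas the highest of the other 18 reached 1.48%, 0.650%, 0.976%, 0.60% and 4.05%. The 4 were named after these values were seen. PCDHGC3, a C-type member, had the largest part, with 143.5 TPM times kb in siCtrl, 71.2 in siG3BP1, 50.9 in siG3BP2, 34.7 in Total and 230.8 in SG. PCDHGB7 had 70.2, 45.0, 44.3, 24.3 and 171.5, PCDHGA7 had 56.2, 44.4, 43.4, 20.5 and 142.9, and PCDHGC4 had 47.6, 31.0, 23.7, 8.15 and 99.3. All 4 parts were lower in both knockdown libraries than in siCtrl and higher in SG than in Total. In siG3BP1, however, the floor rose from 447.6 to 471.6. The whole product of PCDHGC4 rose from 495.2 to 502.5 and that of PCDHGA7 from 503.8 to 516.0. That of PCDHGB7 was nearly unchanged, at 517.8 and 516.6, and that of PCDHGC3 fell from 591.1 to 542.8. The lower parts of PCDHGC4 and PCDHGA7 in siG3BP1 thus come from the subtracted floor, as does most of the fall of PCDHGB7. PCDHGC5, the last gamma member and also C-type, had only 2.56, 1.75, 4.08, 0.722 and 3.18, which is at the level of the members without a clear part.

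In alpha the member with the largest part was the last one, the C-type PCDHAC2. It had 30.2 TPM times kb in siCtrl, 21.3 in siG3BP1, 10.9 in siG3BP2, 6.51 in Total and 135.3 in SG. The other C-type member, PCDHAC1, had 9.08, 6.28, 3.38, 0.928 and 80.8, and PCDHA4 had 6.54, 7.04, 11.2, 3.45 and 80.1. Each of these was highest in SG. PCDHA1, the first gene of the cluster, had 4.81, 3.09, 3.08, 1.93 and 7.94. In deposited TPM the 3 highest alpha members by mean over the libraries were PCDHAC2 with 13.9, 11.1, 7.70, 4.03 and 47.5 TPM, PCDHA8 with 10.8, 9.24, 6.82, 3.50 and 31.2, and PCDHA12 with 10.9, 8.87, 6.95, 3.50 and 31.2. The lowest beside PCDHA2 was PCDHA10 with 3.68, 3.23, 2.46, 1.23 and 12.4 TPM, which has the longest summed exons of the cluster, 15664 bases.

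**Figure D2:**
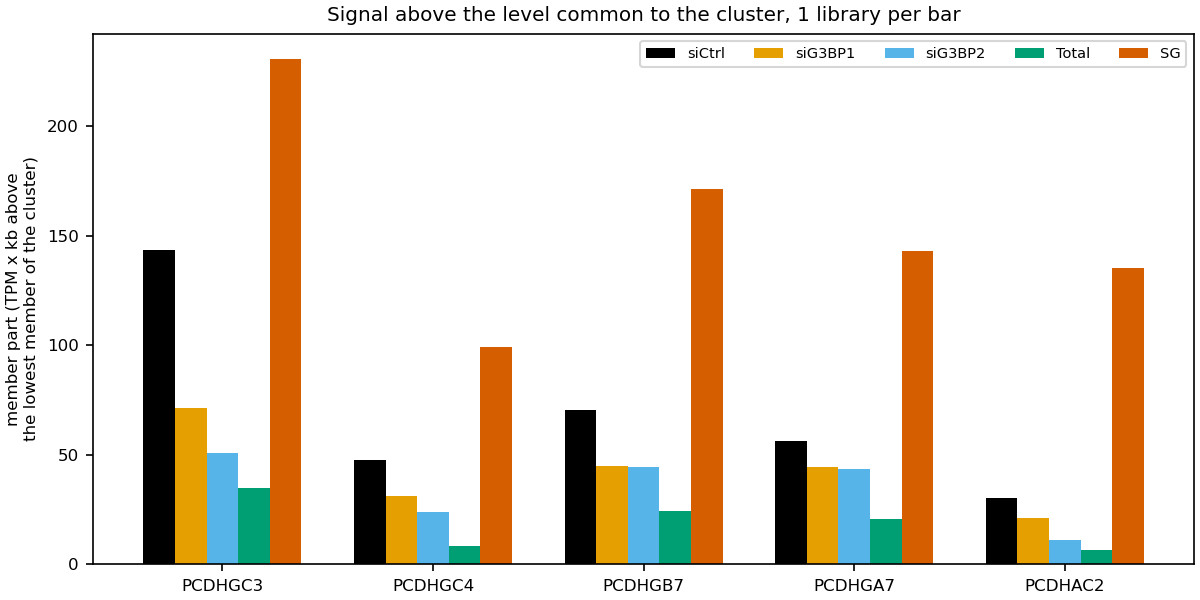
The part above the lowest product of the cluster, in TPM times kb (y axis), for 5 members (x axis) with 1 bar for each of the 5 libraries. In every member the SG bar is the tallest and the Total bar the shortest, and PCDHGC3 falls from 143.5 in siCtrl to 71.2 in siG3BP1 and 50.9 in siG3BP2.

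Beta members share no exon with each other, so their values have no floor in common, and they spread widely. A gene outside the naming rule on the same strand, ENSG00000279983, overlaps the spans of PCDHB14 and PCDHB15. Exons shared with genes outside the clusters were not examined. PCDHB6 had 12.5 TPM in siCtrl, 10.7 in siG3BP1, 9.77 in siG3BP2, 5.63 in Total and 33.9 in SG. PCDHB3 had 8.88, 8.94, 7.64, 3.95 and 56.5, and PCDHB10 had 6.36, 7.48, 5.51, 3.51 and 21.5. These were the 3 highest by mean over the libraries. At the other end PCDHB2 had 0.660, 0.587, 0.629, 0.407 and 2.33 TPM, and PCDHB1, the first beta gene and the one whose promoter lacked GTGGCGCT, had 0.0351, 0.0106, 0.0115, 0 and 0. PCDHB15, the last beta gene, had 3.42, 3.31, 2.45, 0.628 and 9.35 TPM. High and low beta members lay side by side: PCDHB5, at 0.279 TPM in siCtrl, lies between PCDHB4 at 5.32 and PCDHB6.

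The rRNA-depleted libraries gave a second view, because their table lists transcripts and holds, for every alpha and gamma member, a single-exon transcript with its variable exon and no constant exon. The values were whole multiples of what 1 read is worth in RPKM, reads scaled by transcript length and library total (100% of values within 0.02 of a whole read), which gave 13291959 and 11281587 reads as the totals behind the untreated and AS libraries. Reads could thus be counted, and exact 95% Poisson or binomial intervals are given, which cover counting error only. PCDHGC3 had 7.37 RPKM untreated and 8.34 in AS, from 279 and 268 reads. PCDHGC4 had 5.25 and 4.35 from 195 and 137 reads, PCDHGB7 had 3.16 and 3.12 from 117 and 98 reads, and PCDHGA7 had 2.44 and 1.71 from 106 and 63 reads. These 4 members, which were the highest in gamma here, were the same 4 that stood clear of the floor in each of the 5 TPM libraries.

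The other 18 gamma members had between 0.0924 (PCDHGA1, the first gamma gene) and 1.06 (PCDHGC5) RPKM untreated. The transcripts of PCDHGB4 and PCDHGA8 overlap each other's exons, so their 37 and 43 reads are not independent. In alpha PCDHAC2 was highest with 2.25 untreated and 3.12 in AS, from 90 and 106 reads. PCDHA11 followed with 1.10 and 0.934, PCDHAC1 had 0.867 and 0.718, and PCDHA2 had 0.630 and 0.473. The transcripts of PCDHA10 and PCDHA11 overlap, and that of PCDHA3 overlaps exons of PCDHA2. PCDHA7 was lowest with 0.129 untreated from 5 reads. In beta the highest were PCDHB3 with 2.58 and 1.93 (115 and 73 reads), PCDHB10 with 2.15 and 2.34 (94 and 87 reads) and PCDHB14 with 1.75 and 1.89 (103 and 94 reads), and PCDHB1 had 0 and 1 reads. Across genes, which are not independent replicates, Spearman's rho between the siCtrl TPM and the untreated value was 0.84 over 16 beta members. For the part above the floor, per kb of the member's own exons, it was 0.53 over 22 gamma and 0.38 over 14 alpha members, most of them within a few percent of the floor, and for the deposited TPM itself it was 0.60 and 0.29.

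**Figure D3:**
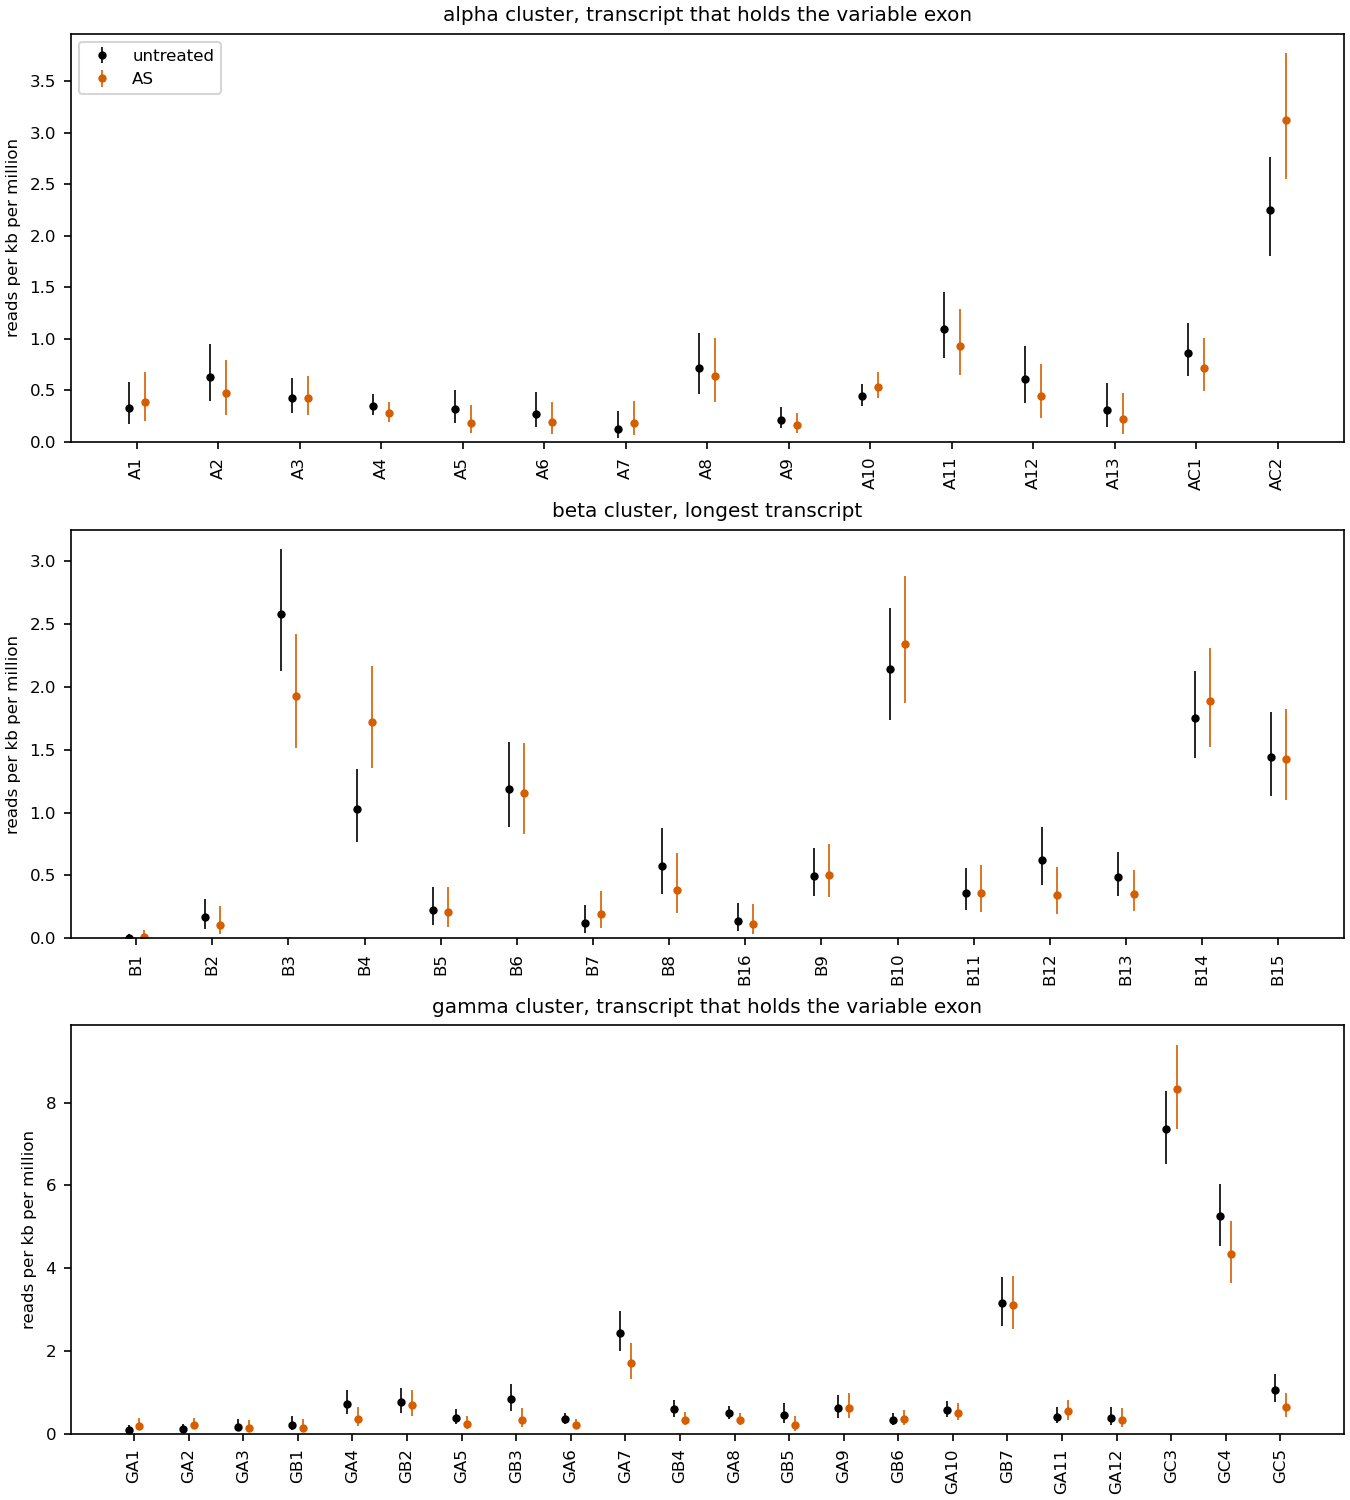
RPKM (y axis) of the variable-exon transcript of each alpha and gamma member and of the longest transcript of each beta member (x axis, genomic order), untreated in black and AS in orange, with exact 95% Poisson intervals of the read count. PCDHGC3 (7.37 and 8.34), PCDHGC4, PCDHGB7 and PCDHGA7 stand above the other gamma members in both libraries, and PCDHAC2 above the other alpha members.

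Full-length transcripts, variable exon and constant exons together, were again alike within a cluster. The 22 full-length gamma transcripts had 706 to 1006 reads untreated and 592 to 870 in AS, and the 15 alpha ones 143 to 240 and 165 to 283. The highest in gamma was PCDHGC3-201 and the highest in alpha PCDHAC2-201, in both libraries. Median values were 11.4 and 11.2 RPKM in gamma and 2.19 and 2.89 in alpha.

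Between the AS and untreated rRNA-depleted libraries no member transcript passed the fold limit. With 1 library per condition there was no test, and a transcript was counted as changed when the ratio of value + 1 was above 2 or below 0.5 and the higher value was above 1. None of the 74 member transcripts above 1 was past either limit, where 1.51% of all 100705 such transcripts were higher and 0.47% lower. The median log2 fold of value + 1 was 0.27 over 28 alpha, -0.01 over 9 beta and -0.02 over 37 gamma transcripts, against 0.22 over all transcripts above 1. The ratio of AS to untreated, without a pseudocount, was 1.19 at the median of transcripts above 1 in both. Against that, the gamma full-length transcript with the fewest reads had a ratio of 0.996 (0.892 to 1.11) and the alpha one of 1.36 (1.08 to 1.71).

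The variable exons were compared in the same way. Summed over each cluster their ratio of AS to untreated was 0.992 (0.867 to 1.13) in alpha, 0.985 (0.878 to 1.10) in beta and 0.887 (0.809 to 0.972) in gamma. Without adjustment for their number, the interval of a single member lay above 1 in 2 of 52 members, against 29.4% of the 111346 transcripts with at least 5 reads untreated and any in AS, and below 1 in 2, against 2.34%. These were PCDHAC2 at 1.39 (1.04 to 1.86) and PCDHB4 at 1.68 (1.16 to 2.44) above, and PCDHGB3 at 0.393 (0.163 to 0.860) and PCDHGA7 at 0.70 (0.504 to 0.965) below. Read against the median ratio of 1.19, 0 members lay above, PCDHAC2 and PCDHB4 included, where 9.76% of transcripts did. Below it lay 0 of 15 alpha, 2 of 15 beta (PCDHB3 and PCDHB12) and 9 of 22 gamma members, where 8.8% of transcripts did, and the share depends on the reads behind each value. Of the 4 highest gamma members PCDHGC4 at 0.828 (0.660 to 1.03) and PCDHGA7 were among these 9, while the interval of PCDHGC3 at 1.13 (0.953 to 1.34) held both 1 and 1.19.

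SG cores held more of every cluster than the lysate, but not to the same degree. With the fold limit of 2 on TPM + 1 and more than 1 TPM in SG, 15 of 15 alpha, 15 of 15 beta and 22 of 22 gamma members above 1 TPM were higher in SG, against 62.9% of 13560 genes, and no member was lower, against 9.45%. PCDHB1 was under 1 TPM in both libraries. The median log2 fold of TPM + 1 was 2.78 in alpha, 2.71 in beta and 1.48 in gamma, where all genes had 1.51. The gamma cluster thus stood at the level of the typical gene and the other clusters above it. In alpha 15 of 15 members and in beta 14 of 15 were above the median of all genes, in gamma 4 of 22. The beta member below it, PCDHB2, was under 1 TPM in Total, where the pseudocount shrinks the fold.

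The SG library had higher values for most genes, with a median ratio of SG to Total of 2.78 over genes above 1 TPM in both. With SG divided by that ratio, 15 of 15 alpha, 12 of 14 beta and 0 of 22 gamma members were past the limit of 2, against 35.3% of all genes. No member was past the lower limit, against 25.6%. For the shared part of gamma the ratio of SG to Total was 2.78, from a lowest product of 297.9 to 827.2, and for that of alpha 8.60, from 18.3 to 157.6. Summed products of the beta members rose from 85.7 to 1026, a ratio of 12. Each ratio compares 1 library with 1, so the spread between preparations is unknown.

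Single members in SG differed most in beta. The largest log2 fold of TPM + 1 there was that of PCDHB13, 3.69, from 0.216 TPM in Total to 14.7 in SG. The smallest was that of PCDHB2, 1.24, from 0.407 to 2.33. Only 6 of 16 beta members were above 1 TPM in Total, and below that the pseudocount shrinks the fold. Without it the ratio of SG to Total was 5.73 in PCDHB2, near the 6.02 of PCDHB6. It was 68 in PCDHB13, and PCDHB11, from 0.0653 to 7.40 TPM, had the largest at 113.4. In alpha the folds ran from 2.58 in PCDHA10 to 3.46 in PCDHA2, and the C-type members PCDHAC1 and PCDHAC2 had 3.22 and 3.27. In gamma they ran from 1.45 in PCDHGA2 to 1.65 in PCDHGC3. The parts above the gamma floor had higher ratios than the floor itself: 6.65 in PCDHGC3, 12.2 in PCDHGC4, 7.04 in PCDHGB7 and 6.96 in PCDHGA7, against 2.78. In alpha the ratio of the part of PCDHAC2 was 20.8, against 8.60 for the floor. These parts are small differences between large products, the part of PCDHGC4 in Total being 2.74% of the floor, so their ratios are less certain than those of the floors.

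**Figure D4:**
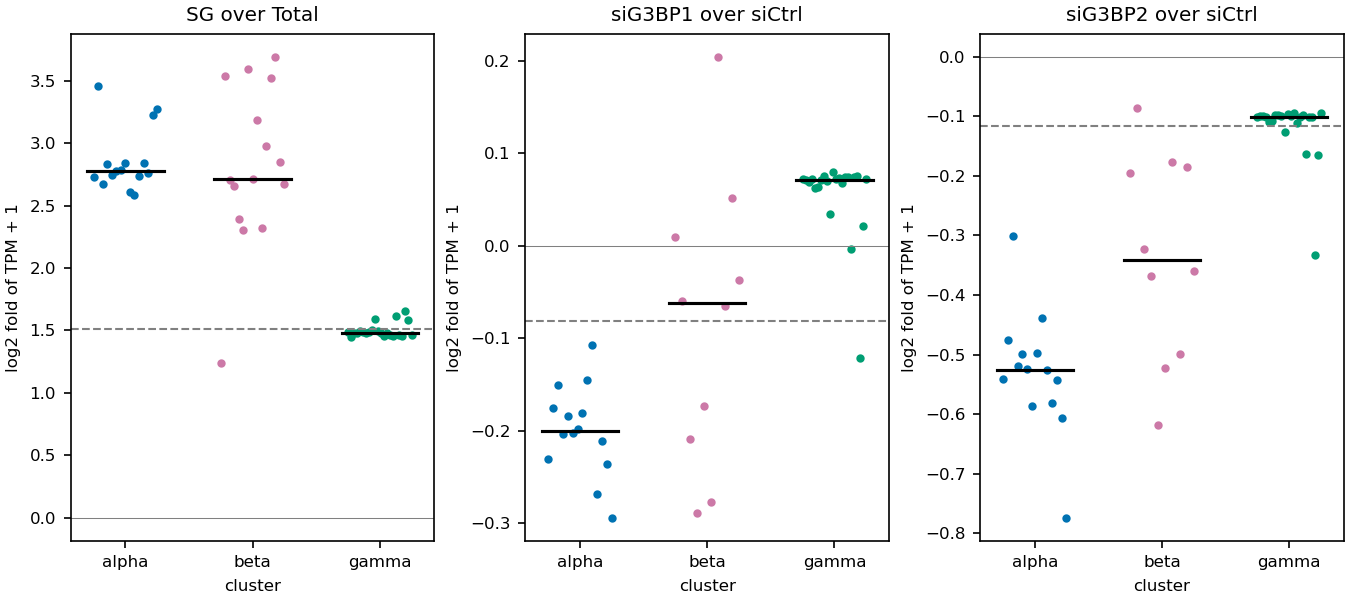
Log2 fold of TPM + 1 (y axis) of the members above 1 TPM in at least 1 of the 2 libraries compared, by cluster (x axis), for SG over Total, siG3BP1 over siCtrl and siG3BP2 over siCtrl. Points are members, black lines the cluster medians and dashed lines the median of all genes, and the gamma points lie tightly at 1.48 in SG while alpha and beta lie higher at 2.78 and 2.71.

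Knockdown of either protein moved no member past the fold limit. None of the 46 members above 1 TPM was higher or lower in siG3BP1, against 1.12% and 1.98% of 12280 genes, nor in siG3BP2, against 1.23% and 2.89% of 12229 genes. Below that limit the cluster medians had both signs in siG3BP1 and were all negative in siG3BP2. In siG3BP1 the median log2 fold of TPM + 1 was -0.20 in alpha, -0.06 in beta and 0.07 in gamma, with -0.08 over all genes. In siG3BP2 it was -0.53, -0.34 and -0.10, with -0.12 over all genes. All 14 alpha members were below the median of all genes in both comparisons, and in siG3BP2 9 of 10 beta members were as well. With the median ratio set to 1, 0 members were lower in either comparison, against 1.77% of genes in siG3BP1 and 2.36% in siG3BP2.

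The shared part of alpha had a ratio to siCtrl of 0.856 in siG3BP1 and 0.660 in siG3BP2, and that of gamma 1.05 and 0.933. Among alpha members the lowest folds were those of PCDHAC2, with log2 values of -0.29 and -0.77 in siG3BP1 and siG3BP2, and the highest those of PCDHA11 in siG3BP1 at -0.11 and PCDHA4 in siG3BP2 at -0.30. Among beta members they were PCDHB7 at -0.29 and PCDHB10 at 0.20 in siG3BP1, and PCDHB8 at -0.62 and PCDHB4 at -0.09 in siG3BP2. Among gamma members PCDHGC3 was the lowest in both, at -0.12 and -0.33, with PCDHGB4 at 0.08 the highest in siG3BP1 and PCDHGC5 at -0.09 in siG3BP2. The gamma members with a part of their own were the lower ones. For that part the ratio to siCtrl was 0.50 in siG3BP1 and 0.35 in siG3BP2 for PCDHGC3, 0.651 and 0.497 for PCDHGC4, 0.641 and 0.631 for PCDHGB7 and 0.790 and 0.772 for PCDHGA7. For PCDHAC2 it was 0.70 and 0.36 and for PCDHAC1 0.69 and 0.37, but for PCDHA4 it was 1.08 and 1.71. These parts are mostly small differences between large products, so the ratios are uncertain. In siG3BP1 the whole products of PCDHGC4 and PCDHGA7 were above those in siCtrl, and that of PCDHGB7 was 516.6 against 517.8. Both knockdowns were compared with the same siCtrl library, so the ratios of the 2 knockdowns are not independent of each other.

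eCLIP values of the alpha and gamma members were high and those of the beta members low, and they followed genomic length. The table gives log10 of a whole number plus 1 per gene. In the first untreated G3BP1 library the medians were 2.99 in alpha, 1.35 in beta and 2.76 in gamma, with 2.44 over all genes. Summed over the table, the values came to between 22678612 and 26179732 in replicate 1 and between 4268657 and 10677853 in replicate 2, so that replicate 1 was the deeper library of each pair. PCDHA10 had the highest value of all members by mean over the libraries, with 3.25 and 2.66 for untreated G3BP1, 3.31 and 2.84 for untreated G3BP2, 3.25 and 2.5 for AS G3BP1 and 3.26 and 2.72 for AS G3BP2. PCDHB8 had the lowest mean, with 1.04, 0, 0.900, 1.04, 0.950, 0, 1.00 and 0.48 in the same order. PCDHB1, which had almost no RNA in any library, had 1.49, 0.850, 1.62, 0.950, 1.23, 1.11, 1.20 and 0.950, as high as PCDHB3 with 1.08, 0.48, 1.18, 1.18, 1.28, 1.00, 1.18 and 1.18. Over the 16 beta members, Spearman's rho between eCLIP value and siCtrl TPM lay between -0.27 and 0.18 in the 8 libraries.

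The span of the annotated transcripts ordered the alpha and gamma values almost completely. A gene counted once for each of its transcripts would have a value in proportion to the summed span, introns included, of all its annotated transcripts, a measure chosen after the data were seen. Spearman's rho with that span, over genes that overlap each other, lay between 0.99 and 1.0 in alpha and between 0.91 and 1.0 in gamma. It lay between 0.11 and 0.86 in beta, where spans are short and values low. Over all 19910 genes it lay between 0.89 and 0.91, so the ordering by span was not particular to the clusters. Per kb of it, the first untreated G3BP1 library gave 3.35 to 3.87 in alpha, 3.95 to 4.20 in gamma and 2.08 to 6.40 in beta, with a median of 3.35 over all genes and a CV over the gamma members of 1.73%. PCDHA10, with the highest eCLIP value, also had the longest summed span of the members. Per kb of gene span, the medians in that library were 7.0 in alpha, 5.38 in beta and 4.20 in gamma, all under the 9.74 of all genes. Per kb of summed exon length alpha (114.9) and gamma (101.6) were above the 63.25 of all genes, and beta (5.38) was below it. The place of a cluster against all genes thus depended on the length used.

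The C-type gamma members at the end of the cluster lay below the span line in several libraries. PCDHGC5 had 0.228 per kb of summed span for G3BP1 and 0.374 for G3BP2 in replicate 2 of the untreated groups, where the cluster medians were 1.04 and 1.57. PCDHGC4 had 0.481 and 0.687, and PCDHGC3 had 0.71 and 0.55. In replicate 1 of the same groups PCDHGC5 had 3.98 and 4.27, so the 2 replicates differed for these members. In AS they were low in replicate 1 of both proteins as well. PCDHGC3, PCDHGC4 and PCDHGC5 had 2.91, 2.72 and 2.62 for G3BP1, with a cluster median of 3.73, and 2.47, 2.6 and 2.68 for G3BP2, with one of 3.64. In alpha, PCDHAC2 had 0.344 in AS G3BP1 replicate 2, with a cluster median of 0.666.

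**Figure D5:**
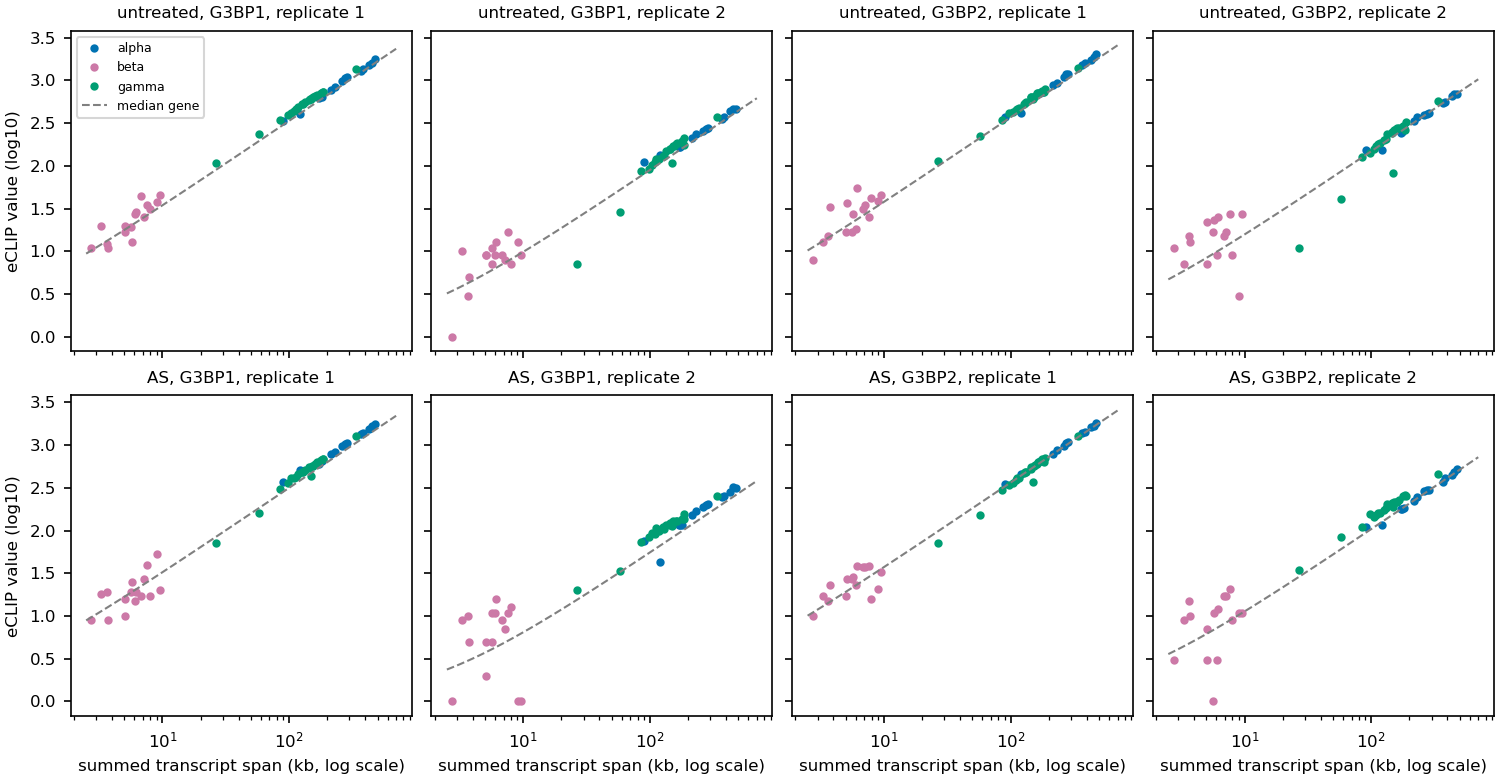
eCLIP value (log10, y axis) against the summed span of the annotated transcripts (kb, log scale, x axis) for each member, with 1 panel per library and colours for the clusters. Most alpha and gamma members lie along a line in every panel, and PCDHGC5 falls below it in replicate 2 of the untreated groups and in replicate 1 of the AS groups.

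Neither AS nor the choice of protein moved a member in eCLIP past the threshold. limma, fitted across all genes on log10 of the value scaled to equal totals, called 0 of 53 members and 0 genes (0.0% in each comparison) at an adjusted p of 0.05 for AS against untreated in G3BP1 and in G3BP2, for the interaction of treatment and protein, and for G3BP2 against G3BP1 untreated and in AS. At an unadjusted p under 0.05 there were 484, 637, 145, 159 and 100 genes and in each comparison 0 members. The labels do not say that the 2 libraries of a group came from separate cultures, so p-values measure only the spread between these libraries. The median log10 difference of AS over untreated was 0.04 in alpha, 0.05 in beta and 0.05 in gamma for G3BP1, and -0.03, -0.07 and 0.02 for G3BP2. PCDHGC3 had a difference of 0.05 (SE 0.11, limma adjusted p = 0.9958) for G3BP1 and 0.15 (SE 0.18, limma adjusted p = 0.9944) for G3BP2, and PCDHAC2 one of -0.09 (SE 0.14) and 0.04 (SE 0.07).

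The share of the summed eCLIP values that fell on each cluster was compared over libraries. Members of a cluster overlap, so this is a share of values and not of reads. Alpha took 0.0611% ± 0.00322 (SD, n = 4) untreated and 0.0620% ± 0.00483 in AS, gamma 0.0478% ± 0.00319 and 0.0513% ± 0.00682, and beta 0.00181% ± 0.000250 and 0.00178% ± 0.000433. Exact two-sided permutation tests over 70 arrangements, 4 libraries against 4, gave adjusted p-values from 0.8 to 0.914 over the 6 tests of treatment and of protein, and the groups overlapped in each. These tests do not use the replicate numbers, and each treatment group pools both proteins. For G3BP1 the alpha share was 0.0621% and 0.0599% untreated and 0.0669% and 0.0651% in AS. For G3BP2 it was 0.0650% and 0.0574% untreated and 0.0594% and 0.0565% in AS. Within each protein the beta and gamma shares overlapped between treatments. Shares within a protein were not tested. Between same-numbered libraries the gamma share was lower for G3BP2 than for G3BP1 in 4 of 4 pairs, by 0.0323 on the log10 scale in the mean, and an exact two-sided sign-flip test gave p = 0.125, the smallest that 4 pairs allow (adjusted p = 0.75 over the 6). In the other 5 the pairs went both ways.

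Other genes of the same biology were read from lists. Of 20 factors known at these promoters, 19 were higher in SG than in Total and 0 lower, where 62.9% of all genes were higher and 9.45% lower, with a median log2 fold of TPM + 1 of 3.68. The highest by mean were TRIM28 with 360.9 TPM in Total and 499.6 in SG, DNMT1 with 51.6 and 291.3, and SMC1A with 13.9 and 281.8. CTCF, named for its role and outside the naming rule, had 36.3, 31.6, 31.0, 19.4 and 223.3 TPM in siCtrl, siG3BP1, siG3BP2, Total and SG. In siG3BP2 1 of the 20 was lower than in siCtrl, against 2.89% of all genes. It was MAU2, which helps to load cohesin, with 35.0 TPM in siCtrl, 30.3 in siG3BP1 and 7.80 in siG3BP2. Another list held 21 proteins tied to clustered protocadherins, such as those that bind, modify or cleave them. Of these, 18 were higher in SG, against the same 62.9%, with a median of 2.18, and 1 was lower. The lower one was BRK1, a subunit of the WAVE actin regulatory complex, with 100.5 TPM in Total and 28.9 in SG. The highest by mean were PRKCA with 17.1 TPM in Total and 617.3 in SG, APH1A with 141.4 and 133.9, and MARCKS with 54.1 and 248.1. PTK2B, a tyrosine kinase that protocadherins bind, was past the lower limit in both knockdowns. It was 1 of 20 tested in each, against 1.98% and 2.89% of all genes. It had 3.51 TPM in siCtrl, 0.264 in siG3BP1 and 0.386 in siG3BP2. In Total, from AS-treated cells without a G3BP siRNA, it stood at 0.266, so the low value was not particular to the knockdowns.

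Protocadherins outside the clusters, which have no shared exons, numbered 12, and 5 of the 5 above 1 TPM in SG or Total were higher in SG, against 62.9% of all genes, with a median of 3.27. In siCtrl 3 were above 1 TPM: PCDH1 at 7.78, PCDH18 at 4.62 and PCDH17 at 4.15. In SG they reached 25, 46.97 and 26.3 TPM, from 1.71, 4.15 and 0.815 in Total. Among 31 genes within or near the locus on chromosome 5, 13 of 28 were higher in SG and 1 was lower, against 62.9% and 9.45%, with a median of 0.91, below those of the 3 clusters. The lower one was NDUFA2, a subunit of respiratory complex I, with 168.9 TPM in Total and 19.3 in SG, and it was among the 3 highest by mean with SLC35A4 (61.6 and 173.1) and HARS1 (76.4 and 102.9). Of these neighbours 2 of 28 were lower in siG3BP1 and 1 of 28 in siG3BP2, against 1.98% and 2.89% of all genes. DIAPH1, an actin nucleator whose gene lies just past the gamma cluster on the other strand, was lower in both. It had 25.8 TPM in siCtrl, 7.72 in siG3BP1 and 6.34 in siG3BP2, but also 3.21 in Total, which had no G3BP siRNA. PFDN1, a prefoldin subunit, was lower in siG3BP1, with 59.8 TPM in siCtrl, 5.42 in siG3BP1 and 64.6 in Total. In siG3BP1 and siG3BP2 the shared part of gamma stood at 1.05 and 0.933 of siCtrl.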

How the data were processed

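RNA-seq (1 library per group) and eCLIP (2 per group, 4 groups) of SH-SY5Y cells were used, and 4 of the 19 samples, the eCLIP inputs, were not analysed here. Per the labels and the study's methods, the authors aligned RNA-seq reads to hg38 with HISAT2 2.1.0 and deposited TPM per gene from poly-A libraries. The rRNA-depleted values deposited by the authors are named TPM, but their steps were those of RPKM, so whole reads were recovered, and the fixed plan had assumed TPM. The deposited eCLIP values are log10 of a whole number plus 1 with 2 decimals, and which steps of peak calling and input normalization they include is not given in the sources used here.

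Members were matched by Ensembl ID to GENCODE release 44, whose lengths and exons were used, while the authors used another release. Members, lists and tests were chosen with earlier results of these data known. Named with values were C-type members, the 3 highest and 2 lowest of each cluster by mean TPM, the extremes of each comparison, and the first and last genes. The 4 gamma members with a clear part, the exclusion of PCDHA2 from the alpha floor, the promoter motifs and the summed transcript span were chosen after values were seen.

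RNA-seq groups had no test. A gene was counted past the limit when the ratio of TPM + 1 was above 2 or below 0.5 and the higher library above 1. eCLIP values were scaled to equal totals and tested with limma 3.58.1 in R 4.3.3 across all genes above 0 in at least 2 libraries, with Benjamini-Hochberg adjustment. Data were also simulated at the means and totals of these libraries. There the AS comparison of G3BP1 recovered 72% of 2-fold and 100% of 4-fold changes among 19235 genes. That of G3BP2 recovered 68% and 100%. The simulated spread was fixed, not taken from the libraries, and only genes with higher values were changed. These shares therefore do not hold for the beta members. Their median absolute log10 difference between AS G3BP1 replicates was 0.40, against 0.12 over genes above 0 in every library. Other steps used Python 3.11.15 and scipy 1.17.1. Intervals are exact at 95% and cover counting error only. The depth of the TPM libraries is unknown. Scaling, filters, pseudocounts, folds, the replicate block and leaving out each eCLIP library were tried as alternatives.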

Additional observations from a re-analysis of the deposited data

Results flagged for a closer look

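In 3 of 53 members the eCLIP difference between AS and untreated went one way in every library of G3BP1 and the opposite way in every library of G3BP2, on values scaled to equal totals. None of these differences was tested beyond the interaction fit, which called 0 members. For PCDHB13 the G3BP1 difference minus the G3BP2 difference was -0.51 on the log10 scale, from -0.44 for G3BP1 and 0.07 for G3BP2. Its scaled values were 1.14 and 1.29 untreated and 0.87 and 0.68 in AS for G3BP1, and 1.03 and 1.01 untreated and 1.03 and 1.14 in AS for G3BP2. The deposited G3BP2 values of PCDHB13 were the same untreated and in AS, 1.23 and 0.850 in each, so the G3BP2 difference comes from the scaling alone. For PCDHA2 the value was 0.07, from 0.04 and -0.03, and for PCDHA3 it was 0.08, from 0.04 and -0.04. These 2 genes overlap, so they are close to 1 measurement. Groups of 1 or 2 libraries were too small for a check of outlying libraries.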

How the results depend on the processing

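For SG against Total, the 52 members higher became 29 with fold limits of 4 and 0.25. With the median ratio set to 1 they became 27, where 35.3% of all genes were higher. In siG3BP2, 4 members (PCDHAC2, PCDHAC1, PCDHB8 and PCDHA8) were lower at a fold of 1.5, against 0. The median ratio of all genes there was 0.919. PCDHAC2, PCDHAC1 and PCDHA8 share the alpha floor, so they are not independent. In the rRNA-depleted libraries 1 member transcript was higher and 1 lower with a pseudocount of 0.1, and 1 was lower with the median ratio set to 1. Except for the 35.3%, shares over all genes or transcripts are not given for these settings, so these counts are not read as a result about the members. The median eCLIP value per kb rose to 77.3 in alpha and 61.5 in gamma over summed exon length, as exons are a small part of the span. Over the summed span of all annotated transcripts it went from 4.79 to 2.41 in alpha, from 4.05 to 2.79 in beta and from 2.66 to 2.55 in gamma. Beta and not alpha was then highest. These changes were less than the spread between libraries, but the values per kb were not scaled for depth. That spread therefore holds the difference in library totals, and the class says little about how stable the values are. The eCLIP share differences, none past the threshold under any setting, changed sign (log10). With the longest-span member the gamma difference of AS from untreated was -0.0025 and the beta difference of G3BP2 from G3BP1 -0.1274. Without each library in turn the difference of AS from untreated ran from -0.0055 to 0.0188 in alpha and from -0.0567 to 0.0191 in beta, and that of G3BP2 from G3BP1 from -0.0247 to 0.0511 in beta. A total of 142 checks of counts, shares and values that answer a comparison were classed as the same, 8 as moved and 11 as reversed in sign. The same meant a count that was equal or within 1.5-fold, many of them 0 in both. For shares it meant the same sign and side of the threshold, and for values per kb a change below the spread between libraries, not scaled for depth.

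With the replicate number as a block, 0 members were called in each of the 5 eCLIP comparisons, and 635, 678, 213, 939 and 305 genes had an unadjusted p under 0.05. For the shares, an alternative chosen after seeing the data, pairs by replicate number left every sign and call as it was. The deviations of same-numbered libraries correlated at 0.11 to 0.544 between groups, but the labels give the numbers no shared origin, so the pairing is a hint from the data. Leaving out each eCLIP library in turn also called 0 members. RNA-seq with 1 library per group gives no replicate error.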
